A study of Apis mellifera with 6 samples.

Results

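Cytochrome P450 genes were examined in the central brain of newly-eclosed drones, queens and workers of the honey bee, Apis mellifera. They were taken from RefSeq's annotation of the Amel_HAv3.1 assembly as every gene whose symbol begins with CYP and a family number, in any case. This selected 4 of the 12288 genes that could be paired with transcripts of the deposited tables, Cyp314a1, CYP6AQ1, Cyp6as5 and Cyp4g11. A further 3 genes carry a P450 name as a synonym of a locus number, CYP15A1 (LOC551179), CYP6AS11 (LOC724946) and CYP6AS13 (LOC551028), and they are described after the 4. Other P450 genes, which the annotation table holds under locus numbers alone, were not analysed here.

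P450 enzymes are haem proteins that insert an oxygen atom into their substrates. In insects they fall into the CYP2, CYP3, CYP4 and mitochondrial clans. The mitochondrial and CYP2 clans hold enzymes that make ecdysteroids and juvenile hormone, the hormones of moulting, metamorphosis and caste development. The CYP3 clan, with families 6 and 9, is known for the breakdown of plant compounds and pesticides, and the CYP4G enzymes of the CYP4 clan make cuticular hydrocarbons.

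RNA-seq was carried out on 2 replicate pools of drone brains, 2 of queen brains and 2 of worker brains. Each pool held 5 dissected brains of bees taken within 1 hour of eclosure. All bees were offspring of 1 mother queen, so the phenotypes come from 1 family. Drones are haploid males, and queens and workers are diploid females that differ in larval diet. The replicates are labelled as separate samples, and p-values measure the spread between these pools. Drone libraries held 40453911 and 11287495 estimated counts, queen libraries 44373783 and 21203822, and worker libraries 12432182 and 7685185. Expression is given as CPM, counts scaled to a fixed library total by the TMM method of edgeR, and as TPM, which is also divided by transcript length and serves to compare genes. A count of 3, taken as the limit of detection, equalled between 0.0739 and 0.422 CPM, a limit that covers counting error only. In these bulk samples, fewer cells of a type and less RNA per cell cannot be told apart.

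The brain label was set against 9 neuron names and 6 glia names, of which the gene table holds 3 each. Their summed levels were 676 and 573 CPM (neuron) and 2360 and 2491 CPM (glia) in drone, 1167 and 1131 CPM and 3963 and 3961 CPM in queen, and 737 and 909 CPM and 3601 and 3933 CPM in worker. Nearly all of the neuron sum came from brp (639 and 554 CPM in drone) and of the glia sum from GlnS (2346 and 2487 CPM in drone). The other members, Syt1, Syx1A, Eaat-2 and Gat-1B, had no called difference in any comparison. Royal jelly proteins and the other names of a hypopharyngeal gland list (10 of 10 found, none at 0) summed to 62.8 and 67.5 CPM in drone and 80.8 and 73.4 CPM in queen, against 21430 and 22620 CPM in worker. The 4 opsins found from a photoreceptor list summed to 2339 and 2595 CPM in drone and 563 and 584 CPM in queen, against 4790 and 4806 CPM in worker. The opsin sum followed Lop1, a long-wavelength opsin (1328 and 1489 CPM in drone, 550 and 571 CPM in queen, 4613 and 4626 CPM in worker). Blop, the blue opsin, was highest in drones, with 1009 and 1105 CPM in drone, 11.5 and 11.7 CPM in queen, and 173 and 178 CPM in worker. According to the methods of the study, the dissection took away the hypopharyngeal glands of workers and the optic lobes of all bees.

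**Figure D1:**
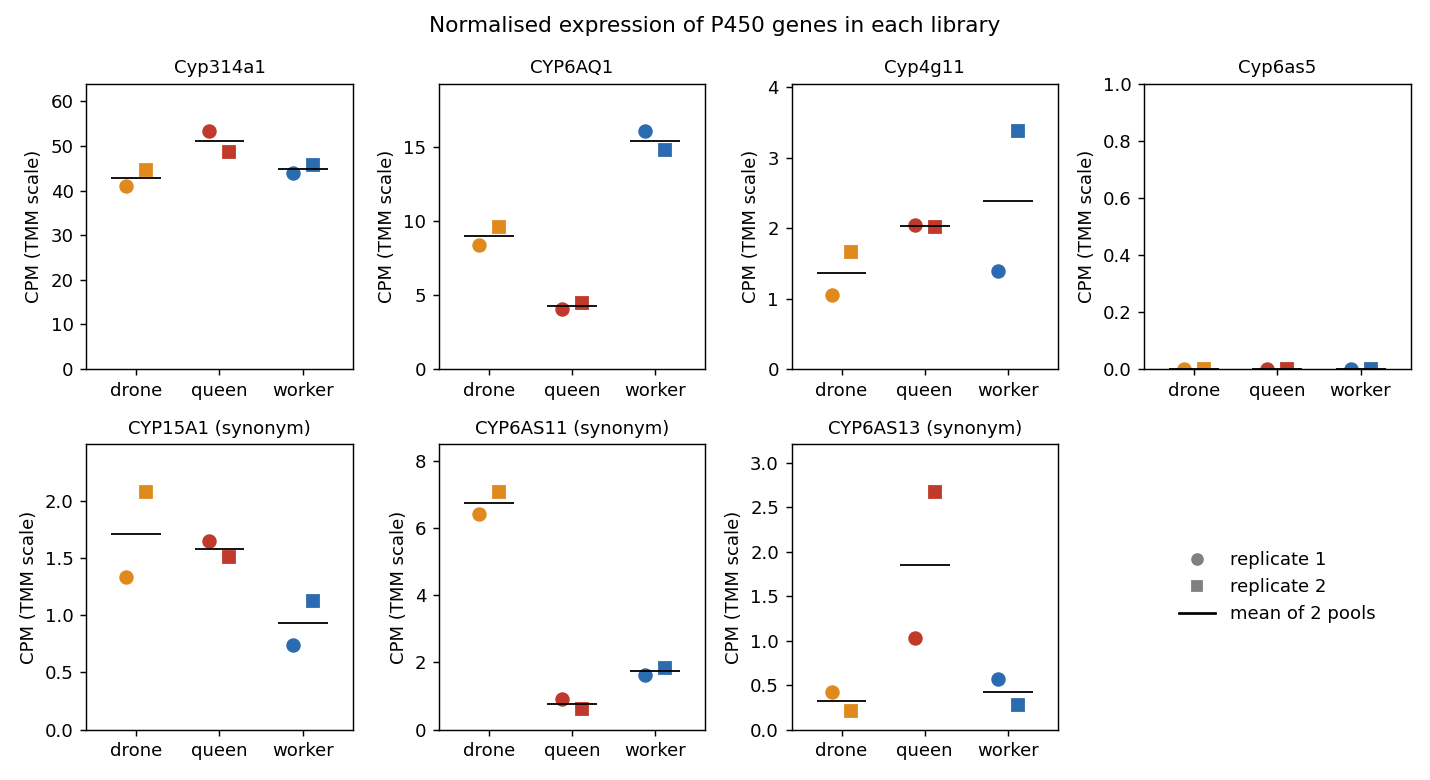
Normalised expression (CPM on the TMM scale, linear axes from 0) of 7 P450 genes in each drone, queen and worker library, with circles for replicate 1, squares for replicate 2 and a line at the mean of the 2 pools. CYP6AQ1 separated all 3 phenotypes, with workers at 16.0 and 14.8 CPM, CYP6AS11 was highest in drones at 6.43 and 7.07 CPM, and Cyp6as5 was at 0 in all 6 libraries.

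Levels per transcript length spanned a wide range. Over the 6 libraries Cyp314a1 averaged 29.4 TPM and lay between 22.5 and 37.6 TPM, above the range of CYP6AQ1, which averaged 9.6 TPM and lay between 4.49 and 16.8 TPM. CYP6AS11 (mean 1.80 TPM), Cyp4g11 (1.64 TPM), CYP15A1 (1.57 TPM) and CYP6AS13 (0.794 TPM) followed, with ranges that overlapped each other. Among the 9688 genes that passed the filter on low counts, mean TPM placed Cyp314a1 at percentile 65.6 and CYP6AQ1 at 53.8, and Cyp4g11 at 33.6. The most abundant P450 gene by symbol was thus an ecdysteroid enzyme and the next a CYP3 clan gene.

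Of the 4 genes selected by symbol, 3 passed the filter, and CYP6AQ1 was the only one with an FDR below 0.05 in drone against queen, where 30.7% of all tested genes were called. It was also the only one called in drone against worker (28.6% of all genes called), in queen against worker (22.2%) and in the joint test of phenotype (38.9%). The 3 comparisons share libraries and are not independent of each other. With 1 of 3 tested genes called each time, the P450 genes are too few to be read against these shares.

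CYP6AQ1 (gene 408383), a family 6 gene of the CYP3 clan, lies on linkage group LG12 from 11127257 to 11130777 on the plus strand. Its normalised expression was 8.39 and 9.56 CPM in drone, 4.06 and 4.43 CPM in queen, and 16.0 and 14.8 CPM in worker, from between 88 and 295 counts per library. No 2 phenotypes overlapped, with workers above drones and drones above queens, and the order was the same on TPM (7.20 and 8.36 in drone, 4.49 and 5.24 in queen, 16.8 and 15.5 in worker). A lack of overlap is common with 2 libraries per phenotype. On CPM, 62.9% of all tested genes did not overlap in drone against queen, 60.7% in drone against worker and 64.8% in queen against worker. CYP6AQ1 was higher in drone than in queen, with a log2 fold change at 1.07 and its standard error at 0.21 (FDR 0.00307). It was lower in drone than in worker, at -0.79 (0.21, FDR 0.0173), and lower in queen than in worker, at -1.86 (0.21, FDR 0.000164). The mean was 4.25 ± 0.262 CPM in queen and 15.4 ± 0.895 CPM in worker (SD, n = 2 pools each), the widest separation among the genes selected by symbol.

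The difference between drone and worker in CYP6AQ1 kept its direction and much of its size with each library left out, at between -0.88 and -0.69. Its call was lost without drone replicate 1 (-0.69, FDR 0.0874), without worker replicate 1 (-0.69, FDR 0.114) and without worker replicate 2 (-0.84, FDR 0.0525). The differences from queen were called without each library in turn. The hypopharyngeal gland sum and Lop1 were also highest in workers, while Mrjp8 and Blop were highest in drones, and their part in the CYP6AQ1 difference was not tested.

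**Figure D2:**
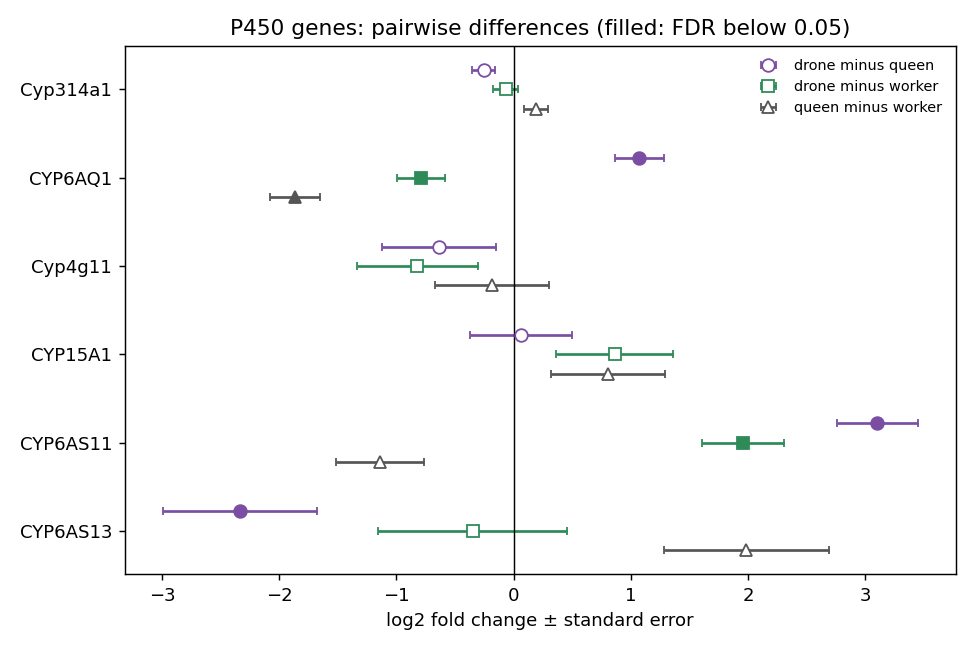
Log2 fold changes (points) with standard errors (bars) of the 6 P450 genes tested, for drone minus queen (circles), drone minus worker (squares) and queen minus worker (triangles), with filled points where the edgeR FDR is below 0.05. CYP6AQ1 is filled in all 3 comparisons, at 1.07, -0.79 and -1.86, CYP6AS11 in both drone comparisons, at 3.104 and 1.96, and CYP6AS13 in drone minus queen alone, at -2.34.

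CYP6AQ1 has 4 annotated transcripts, which combine either of 2 ends of the first exon (11127312 or 11127404) with either of 2 starts of the second exon (11127800 or 11127992, a difference of 192 nt). The second exon with the upstream start held 70.9% and 57.1% of the gene's estimated counts in drone, 67.4% and 50.4% in queen, and 54.1% and 31.7% in worker. Drone shares lay above worker shares and queens overlapped both, and the shares were not tested. The first exon with the upstream end held 44.4% and 15.6% in drone, 8.24% and 67.5% in queen, and 65.9% and 100% in worker. The spread between replicates of queen was as wide as that between phenotypes, so the transcripts could not be ranked by phenotype. When each gene was represented by its most abundant transcript alone, the CYP6AQ1 differences had the same direction and were larger, at 1.69 in drone against queen (standard error 0.78, FDR 0.201), -0.97 in drone against worker (0.75, FDR 0.427) and -2.67 in queen against worker (0.80, FDR 0.0914). Their standard errors were also larger and none was called.

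**Figure D3:**
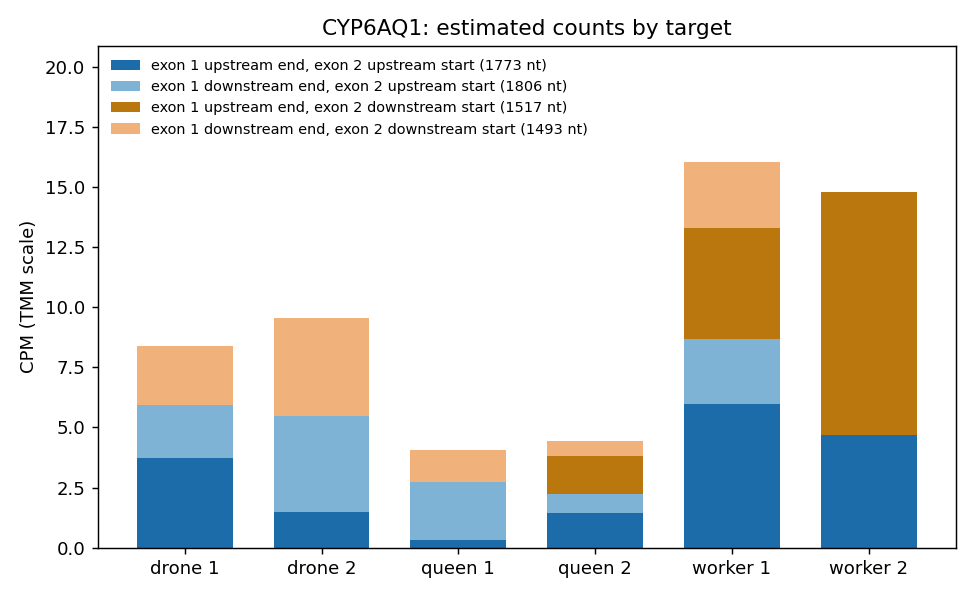
Stacked bars of CYP6AQ1 expression (CPM on the TMM scale) in each library, divided among its 4 annotated transcripts as Kallisto assigned the reads. The total was between 14.8 and 16.0 CPM in worker and between 4.06 and 4.43 CPM in queen, and the division among transcripts differed between replicates, as with the 1517-nt transcript, which held 35.4% in queen replicate 2 and 0% in queen replicate 1.

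Cyp314a1 (gene 411057, synonym shade) is the ecdysteroid enzyme of the set. In Drosophila, shade is the mitochondrial hydroxylase that turns ecdysone into the active moulting hormone 20-hydroxyecdysone. The gene lies on LG5 from 13661266 to 13666787 on the minus strand. Its normalised expression was 41.1 and 44.7 CPM in drone, 53.3 and 48.7 CPM in queen, and 43.9 and 45.8 CPM in worker, from between 325 and 2166 counts. Queens lay above both other phenotypes, and drones and workers overlapped. The log2 fold change was -0.26 in drone against queen (standard error 0.10, FDR 0.0875), -0.07 in drone against worker (0.11, FDR 0.682) and 0.19 in queen against worker (0.10, FDR 0.227), and none passed the threshold.

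The drone and queen difference in Cyp314a1 varied with the settings of the test, scaling among them. TPM values were 22.5 and 24.0 in drone, 37.6 and 34.8 in queen, and 28.2 and 29.3 in worker, and the 3 phenotypes did not overlap on this scale. On TPM, 6837 (drone against queen), 6279 (drone against worker) and 6332 (queen against worker) of the 9688 tested genes did not overlap. With limma on log2(TPM + 1) the difference was -0.62 in drone against queen (FDR 0.00202), -0.30 in drone against worker (FDR 0.043) and 0.32 in queen against worker (FDR 0.0446). On the same scale the median of all tested genes moved to -0.28, -0.14 and 0.15 in these comparisons, while under TMM it was between 0.00 and 0.03 in size. With TMM kept, a minimum of 10 counts in every library gave -0.25 in drone against queen (edgeR FDR 0.0377). Thinning the counts to the smallest library gave -0.12 (edgeR FDR 0.439), and leaving out queen replicate 1 also gave -0.12.

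Cyp314a1 has 11 annotated transcripts, of which 6 received counts and 5 were at 0 in every library. Between 99.4% and 100% of its estimated counts fell on the 8 transcripts that carry 1 unbroken exon of 736 nt (13662310 to 13663045). In the other 3 transcripts this stretch is interrupted by introns of 107 nt (13662477 to 13662583) and 100 nt (13662747 to 13662846). Those 3 transcripts held 8.6 estimated counts in drone replicate 1 and 9.2 in queen replicate 1, at most 0.596% of the gene, and 0 in the other 4 libraries. Transcripts from which these introns are spliced out were therefore a small part of the Cyp314a1 signal in all 3 phenotypes, as Kallisto divided it.

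A second Cyp314a1 exon (13663118 to 13663511), which runs through an intron of 87 nt, held 30.8% and 25.9% of the estimated counts in drone, 28.5% and 32.5% in queen, and 36.5% and 22.1% in worker. The ranges of the phenotypes overlapped. The counts were divided about equally between transcripts with a distal first exon, which begins at 13666787, and those with a proximal one (13665090 to 13665267), which begins 1520 nt downstream. The proximal first exon held 47.5% ± 6.64 in drone, 49.6% ± 1.71 in queen and 50.2% ± 13.9 in worker (SD, n = 2 pools each). All of these counts fell on 1 of its 2 transcripts, the one of 2378 nt. The share of the proximal first exon thus differed less between phenotypes than between the replicates of worker, and shares were not tested.

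**Figure D4:**
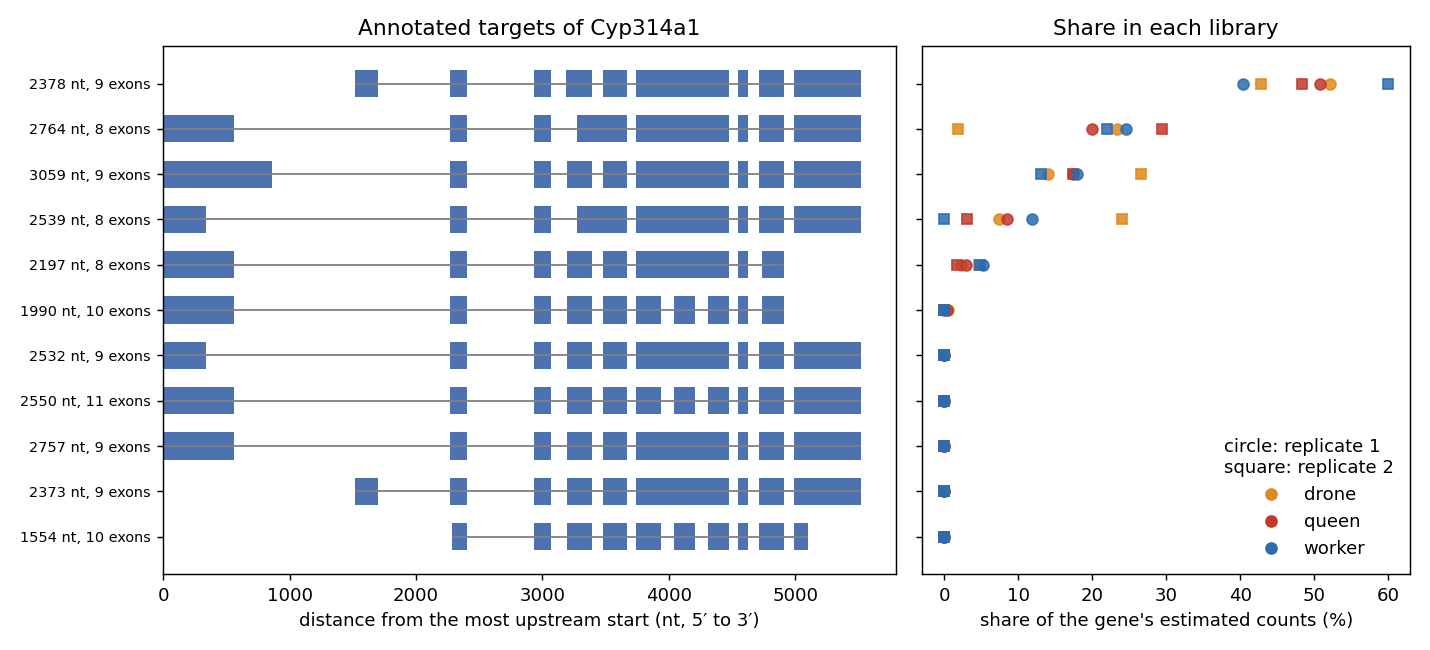
Left, exons (boxes) and introns (lines) of the 11 annotated Cyp314a1 transcripts, 5′ to 3′, against distance in nt from the most upstream start. Right, the share of the gene's estimated counts on each transcript in the 6 libraries (percent, circles for replicate 1 and squares for replicate 2), where the 2378-nt transcript with the proximal first exon held between 40.3% and 60.0% and 5 transcripts were at 0.

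Cyp4g11 (gene 409469) belongs to the CYP4G enzymes, which in Drosophila carry out the last step of cuticular hydrocarbon synthesis in oenocytes. It lies on LG16 from 2830988 to 2835517 on the minus strand. Its normalised expression was 1.05 and 1.66 CPM in drone, 2.04 and 2.01 CPM in queen, and 1.39 and 3.38 CPM in worker, from 37 and 16, 83 and 40, and 17 and 24 counts. Drones lay below queens, and workers overlapped both. The log2 fold change was -0.64 in drone against queen (standard error 0.49, FDR 0.383), -0.82 in drone against worker (0.51, FDR 0.272) and -0.18 in queen against worker (0.49, FDR 0.829). None passed the threshold, and the 2 worker pools differed by more than the phenotype means did.

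The 4 annotated Cyp4g11 transcripts differ in their first exon. The most distal one (2835389 to 2835517) held 59.1% and 51.0% of the estimated counts in drone, 56.5% and 10.2% in queen, and 73.3% and 87.8% in worker. The worker shares were the highest, but they stood for 12.5 and 21.1 estimated counts, and the 2 queen pools lay far apart.

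Cyp6as5 (gene 409677), of the CYP6AS subfamily that is expanded in honey bees, lies on LG13 from 10715717 to 10720066 on the minus strand. Neither of its 2 annotated transcripts received an estimated count in any of the 6 libraries. The limit that a count of 0 allows was 0.0853 and 0.312 CPM in drone, 0.0739 and 0.151 CPM in queen, and 0.246 and 0.422 CPM in worker. Cyp6as5 was not detected at this depth in the brain of any phenotype and was given no fold change.

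Among the 3 P450 genes named by synonym, CYP6AS11 differed most. It is a CYP6AS gene on LG13, from 10541731 to 10546300 on the plus strand. Its normalised expression was 6.43 and 7.07 CPM in drone, 0.911 and 0.605 CPM in queen, and 1.64 and 1.83 CPM in worker, from 226 and 68, 37 and 12, and 20 and 13 counts. Drones lay above workers and workers above queens, with no overlap, as was the case for between 60.7% and 64.8% of all tested genes per comparison. CYP6AS11 was higher in drone than in queen (log2 fold change 3.104, standard error 0.35, FDR 7.73e-05) and higher in drone than in worker (1.96, 0.35, FDR 0.0021). The queen and worker difference was -1.14 (0.38, FDR 0.0564) and did not pass the threshold.

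Both drone differences in CYP6AS11 were called in all 19 alternatives, with log2 fold changes between 1.61 and 3.53 against queen and between 1.15 and 2.04 against worker. Cuticle genes (5 found) summed to 6154 and 5803 CPM in drone, 1131 and 1137 CPM in queen, and 2817 and 3440 CPM in worker, the same order as CYP6AS11. Most of it came from Apd-1 (5316 and 5100 CPM in drone). Other cuticle genes were higher in queen than in worker, without a call. These were apd-3 (gene 409716, 2.91 and 3.12 against 2.05 and 0.704 CPM) and CPR14 (1.38 and 2.12 against 0.328 and 0.845 CPM). Fat body genes (6 of 7 found) summed to 2461 and 2637 CPM in drone, 1590 and 1565 CPM in queen, and 1639 and 1856 CPM in worker, nearly all of it from transferrin Tsf1. In drone against queen, 3 fat body genes were called higher and 2 lower. The hexamerins Hex70a and Hex70c were called higher in drone than in queen and than in worker. Hex70c was at 7.22 and 7.07 CPM in drone, 2.95 and 2.37 CPM in queen, and 0.573 and 0.845 CPM in worker. Vg and Hex110 went the other way against queen. Vg, which encodes vitellogenin, had 0.597 and 0 CPM in drone, 27.3 and 71.8 CPM in queen, and 0.0819 and 0 CPM in worker, and was lower in drone than in queen (FDR 2.37e-05), as was the hexamerin Hex110 (log2 fold change -1.45, FDR 0.00943). The part of these tissues in the CYP6AS11 difference was not tested.

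CYP6AS13 lies at the other end of the same LG13 region, from 10755659 to 10759881 on the minus strand. Its normalised expression was 0.427 and 0.208 CPM in drone, 1.03 and 2.67 CPM in queen, and 0.573 and 0.282 CPM in worker, from 15 and 2, 42 and 53, and 7 and 2 counts. Queens lay above both other phenotypes, which overlapped. CYP6AS13 was lower in drone than in queen (log2 fold change -2.34, standard error 0.66, FDR 0.0225), whereas drone against worker (-0.35, 0.80, FDR 0.785) and queen against worker (1.99, 0.70, FDR 0.0727) did not pass. The call was lost without queen replicate 2 (-1.56, FDR 0.26) and without drone replicate 2 (-2.06, FDR 0.062). Muscle genes (4 of 9 found) summed to 101 and 86.4 CPM in drone, 915 and 822 CPM in queen, and 147 and 194 CPM in worker, and their part in the CYP6AS13 difference was not tested.

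CYP15A1, on LG7 from 13421090 to 13423725 on the minus strand, is the CYP2 clan gene of the set. In a cockroach, CYP15A1 is the epoxidase that turns methyl farnesoate into juvenile hormone. Its normalised expression was 1.34 and 2.08 CPM in drone, 1.65 and 1.51 CPM in queen, and 0.737 and 1.13 CPM in worker, from 47 and 20, 67 and 30, and 9 and 8 counts. Workers lay below drones and queens, which overlapped. The log2 fold change was 0.06 in drone against queen (standard error 0.44, FDR 0.942), 0.87 in drone against worker (0.50, FDR 0.231) and 0.80 in queen against worker (0.49, FDR 0.276), and none passed the threshold.

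CYP6AS11, Cyp6as5 and CYP6AS13 share a stretch of LG13 with 17 genes that carry no P450 name in the table. Of these 17, 5 had at most 3 counts in every library and 11 passed the filter. Drone against queen gave 0 higher and 7 lower among the 11 (63.6%, against 30.7% of all tested genes), drone against worker 1 higher and 3 lower (36.4%, against 28.6%), and queen against worker 5 higher and 0 lower (45.5%, against 22.2%). CYP6AS11, higher in drone, thus lay next to genes that were lower in drone or not called against queen, and what the unnamed genes encode was not examined.

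**Figure D5:**
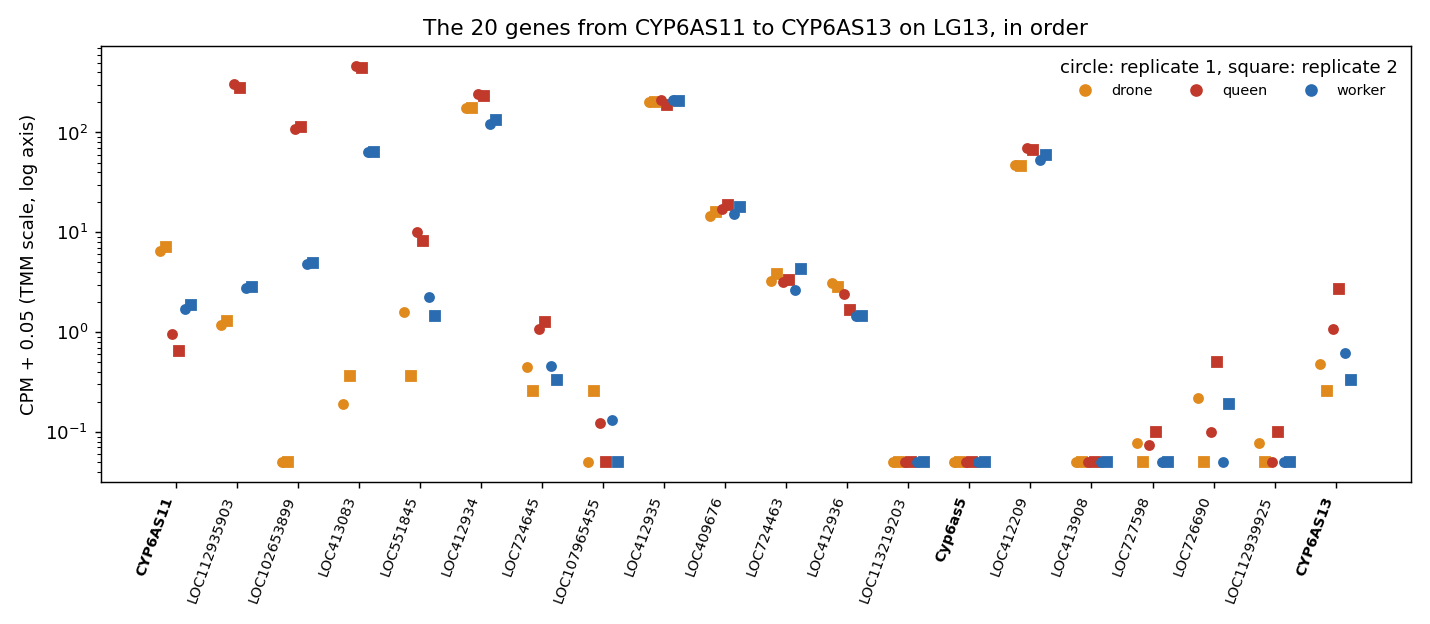
Expression (CPM + 0.05 on the TMM scale, log axis) of the 20 genes from CYP6AS11 to CYP6AS13 in their order on LG13, with circles for replicate 1 and squares for replicate 2 of drone, queen and worker. CYP6AS11 is highest in drones (6.43 and 7.07 CPM), CYP6AS13 in queens (1.03 and 2.67 CPM), and Cyp6as5 lies at the floor in all 6 libraries.

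The summed estimated counts of the P450 genes were whole numbers, within 0.01, in all 6 libraries for 6 of the 6 that were tested, against 69.4% of all tested genes, so Kallisto divided no read of theirs in fractions with another gene. For Cyp6as5, at 0 throughout, this says nothing. Reads that fit several similar genes but were given entirely to a single gene would also leave whole totals, so such reads cannot be seen this way. Among the 20 genes from CYP6AS11 to CYP6AS13 on LG13, the coordinates of the 3 P450 genes overlap no other gene. For the other P450 genes, overlap with annotated genes was not examined.

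Genes that act beside P450 enzymes were listed as 22 names of redox partners, conjugating enzymes, esterases, hormone enzymes and hormone-responsive regulators. The table names 9 of these genes, none of them a redox partner, and 8 passed the filter. In drone against queen 1 was higher and 4 were lower (30.7% of all tested genes were called), in drone against worker 1 was higher and 4 were lower (28.6%), and in queen against worker 4 were higher and 1 was lower (22.2%). Their median log2 fold change was -0.71, -0.68 and 0.56 in these comparisons, against 0.00, 0.01 and 0.03 for all tested genes.

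Of these genes jhamt differed most in both drone comparisons, and Jhe in queen against worker. Transcripts of jhamt (LOC724216), the methyltransferase of juvenile hormone synthesis, were at 12.9 and 14.2 CPM in drone, 146 and 128 CPM in queen, and 93.5 and 83.9 CPM in worker. jhamt was lower in drone than in queen (log2 fold change -3.36, standard error 0.11, FDR 9.25e-09) and than in worker (-2.73, 0.11, FDR 8.34e-08), and higher in queen than in worker (0.63, 0.10, FDR 0.0012). Jhe, the esterase that degrades juvenile hormone, had the opposite place in drones, with 90.8 and 91.8 CPM in drone, 57.1 and 57.2 CPM in queen, and 19.7 and 23.5 CPM in worker. It was higher in drone than in queen by 0.68 (0.10, FDR 0.000428) and than in worker by 2.09 (0.11, FDR 4.02e-07), and higher in queen than in worker by 1.41 (0.11, FDR 9.8e-06). CYP15A1, which acts on the same hormone in the cockroach, had no called difference beside them.

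Ecr, which encodes the receptor for the product of Cyp314a1, was at 234 and 192 CPM in drone, 654 and 600 CPM in queen, and 301.9 and 353 CPM in worker. It was lower in drone than in queen, at -1.55 on the log2 scale (standard error 0.11, FDR 2.77e-06) and than in worker, at -0.61 (0.11, FDR 0.00215), and higher in queen than in worker by 0.94 (0.11, FDR 0.000186). Queens had the highest values of both Ecr and Cyp314a1, although the Cyp314a1 differences did not pass the threshold. Usp, the partner of the ecdysone receptor, was lower in drone than in queen (-1.51, 0.44, FDR 0.0249). It was at 1.73 and 0.832 CPM in drone, 2.81 and 5.14 CPM in queen, and 2.87 and 2.67 CPM in worker. Drone against worker (-1.01, 0.46, FDR 0.134) and queen against worker (0.50, 0.43, FDR 0.454) were not called. Usp levels were low, and the queen pools lay apart. E75 and Kr-h1, early targets of ecdysteroids and juvenile hormone, had no called difference, but their levels were low and replicates lay apart. E75 was at 8.67 and 1.98 CPM in drone, 4.23 and 9.47 CPM in queen, and 3.27 and 5.63 CPM in worker. Kr-h1 was at 1.54 and 3.33 CPM in drone, 0.640 and 1.01 CPM in queen, and 0.983 and 0 CPM in worker.

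The conjugating enzymes split in direction between queens and workers. GstD1, a delta-class glutathione S-transferase, was at 8.73 and 9.04 CPM in drone, 6.40 and 6.75 CPM in queen, and 15.7 and 17.2 CPM in worker, the same order as CYP6AQ1. It was lower in drone (-0.89, standard error 0.19, FDR 0.00682) and in queen (-1.32, 0.19, FDR 0.000885) than in worker, and the drone and queen difference of 0.43 was not called (FDR 0.123). GstS1, of the sigma class, was at 58.6 and 61.1 CPM in drone, 137 and 131 CPM in queen, and 101 and 99.0 CPM in worker, with queens highest and drones lowest. GstS4, also of the sigma class, did not pass the filter.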

How the data were processed

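RNA was sequenced from pooled central brains of drones, queens and workers, as 2 libraries per phenotype, with a directional polyA library kit. The authors quantified each library against the Ensembl Metazoa transcripts and non-coding RNAs of Amel_HAv3.1 with Kallisto, set to the strand of the reads (its version is not given in the sources used here). They deposited estimated counts, which are not normalised, TPM values, which are scaled to transcript length and library total, and the lengths and exon coordinates of the targets. The study tested caste with sleuth. Here 28232 of 28409 targets were paired by exon coordinates with 12288 of 12398 RefSeq genes, and the 177 others (between 7.26% and 10.4% of a library's estimated counts) were left out.

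The estimated counts of a gene's targets were added up and rounded. A gene was tested where 3 or more of the 6 libraries had 5 counts or more. The test was that of edgeR 4.0.16 in R 4.3.3 (TMM, quasi-likelihood fit of phenotype over all 6 libraries, 3 residual degrees of freedom, common dispersion 0.0215, Benjamini-Hochberg adjustment over 9688 genes, threshold 0.05). CPM are on the TMM scale, and FDR values come from this fit unless another tool is named. The standard error of a log2 fold change was derived from the change and its F statistic. Every P450 gene that the table names is accounted for, those with an FDR below 0.05, the 5 with the highest mean TPM, CYP314A1, CYP15A1 and CYP4G11 library by library. These genes and all lists were chosen with earlier results of these data known. Alternatives covered scaling, DESeq2 1.42.0, limma 3.58.1 on log2(TPM + 1) and log2(TPM + 0.1), filters, single targets, thinning, a replicate block, the phenotypes fitted and each library left out. Tables and figures used pandas 2.3.3 and matplotlib 3.10.9.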

Additional observations from a re-analysis of the deposited data

How the results depend on the processing

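Over 19 alternatives for each of 6 P450 genes and 3 comparisons (18 where a filter removed the gene), 304 log2 fold changes kept their direction and their side of the threshold, 11 lost a call, 10 gained one and 11 changed sign. In drone against queen, 2 genes selected by symbol were called, with Cyp314a1 added, under upper-quartile factors, library totals, limma on log2(TPM + 1) and on log2(TPM + 0.1) and a minimum of 10 counts in every library, and 0 with the most abundant target alone. In drone against worker and in queen against worker, 2 were called with both limma settings and 0 with the most abundant target alone. With each library left out, where the lone library of a phenotype is assumed to vary like the others, the count was between 0 and 1 in drone against worker. The most abundant target alone also called fewer of all genes (1872, 1745 and 1150, against 2977, 2767 and 2152 in drone against queen, drone against worker and queen against worker), as did leaving out queen replicate 1 (1979 in drone against queen, 1283 in queen against worker), queen replicate 2 (1188 in queen against worker) or worker replicate 1 (1303 in queen against worker).

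Signs changed only in differences that were not called. In drone against queen, Cyp4g11 became 0.049 with the most abundant target, and CYP15A1 became -0.055 with library totals, -0.194 and -0.295 with limma and -0.075 after thinning, and lay between -0.246 (without drone replicate 2) and 0.389 with each library left out. In drone against worker, Cyp314a1 became 0.011 after thinning, and CYP6AS13 lay between -1.108 and 0.371 (without worker replicate 1) with each library left out. In queen against worker, Cyp4g11 became 0.051 and 0.108 with limma, and lay between -0.742 and 0.543 (without worker replicate 2) with each library left out. CYP6AS13 in drone against queen lost its call also with the most abundant target (-2.36, FDR 0.0832), after thinning (-1.85, FDR 0.123) and with the replicate block (-2.29, FDR 0.0584). The cause of these changes was not tested.

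The labels give replicate numbers but do not say whether these pair the libraries. Deviations of same-numbered libraries correlated at -0.35 (drone and queen), -0.086 (drone and worker) and -0.016 (queen and worker). With 2 libraries per phenotype, these values cannot decide whether same-numbered libraries shared a batch. With the replicate block, 1 gene selected by symbol was called in each comparison, and 2457, 2268 and 1681 of all genes. With the drone numbers swapped, chosen after seeing the data, the block called 3252, 3098 and 2564. Counts were low, between 2 and 83 per library, for Cyp4g11, CYP15A1 and CYP6AS13, and Cyp6as5 was at 0. CYP6AS11 was also low in queen (37 and 12 counts) and worker (20 and 13), against 226 and 68 in drone.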

Other observations

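Beside CYP6AS11 on LG13 lie genes with larger differences than the P450 genes, chosen here after their values were seen. LOC112935903 (10547007 to 10550169) had 1.14 and 1.25 CPM in drone, 303.1 and 278 CPM in queen, and 2.70 and 2.82 CPM in worker. Its log2 fold change was -7.96 in drone against queen (edgeR FDR 6.83e-11), -1.23 in drone against worker (FDR 0.00144) and 6.72 in queen against worker (FDR 1.77e-10). LOC413083 (10556643 to 10560215) had 5 and 3 counts in drone, 466 and 444 CPM in queen, and 63.3 and 63.1 CPM in worker, and was higher in queen than in worker by 2.85 (FDR 6.23e-09). CYP6AS11, which ends at 10546300, was highest in drones.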
